A study of Mus musculus with 8 samples.

Results

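Chemokine ligands are small secreted proteins that draw leukocytes along a gradient by binding G protein-coupled receptors. They are named for the spacing of their first cysteines, which are adjacent in CC ligands and parted by another residue in CXC ligands. Monocytes, macrophages and neutrophils make several of them, and in the mouse most of the CC genes of these cells stand in clusters on chromosome 11. The genes described here are 10 such ligands, 7 of the CC type (Ccl2, Ccl3, Ccl4, Ccl5, Ccl6, Ccl7 and Ccl9) and 3 of the CXC type (Cxcl2, Cxcl10 and Cxcl16). They were chosen by symbol from the deposited table, and all 10 are among its 23084 genes.

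The study asked what the nuclear lamina protein lamin A/C does in the differentiation of myeloid cells. RNA came from CD11b+Ly6C+ (monocytic) and CD11b+Ly6G+ (granulocytic) cells sorted from the spleen of C57BL/6 mice aged 6 to 8 weeks, either wt or LmnaMyeKO, in which floxed Lmna is deleted by Cre expressed from the lysozyme 2 locus. Cre from this locus acts in monocytes, macrophages and neutrophils, and the sorted cells need not have lost the gene in every cell. The 8 samples form 4 groups of 2, and titles gave the subset, because the label for cell markers reads CD11b+Ly6C+ throughout. Whether the samples came from separate mice is not stated in the labels, and no treatment is given for these mice.

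The value used for each gene is the authors' mean signal, an average over libraries of read counts divided by a size factor, which depends on the depth and the RNA composition of a library. The table gives no value for a single library, and the columns of the authors' own comparison were not used. No comparison between wt and LmnaMyeKO cells or between the subsets was therefore made here, and no value below has a replicate error. How many libraries were averaged could be read from the lowest values. A single read adds a fixed step to the mean, and all 1223 genes with a mean signal below 0.4 were whole sums of just 8 steps, within 5e-08. The mean therefore covers as many libraries as the series has samples, so that wt and LmnaMyeKO cells of both subsets are blended in it. The 8 size factors ran from 0.796 to 1.91 and the largest was 1.83 times the next. Depth and RNA composition cannot be told apart in them. A read added between 0.0653 and 0.157 to the mean, which sets how many reads stand behind each value.

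Levels of different genes were compared after division by length, unless mean signal is named, as a share per 1000000 of all length-scaled signal, named the level from here on. On that scale the granulocyte alarmins S100a8 and S100a9 took up 19.0% of the total. All 8 neutrophil markers were detected, from Ly6g at a level of 799 to S100a9 at 133153. All 8 genes of the monocyte list were detected too, from Ly6c1 at 3.56 to Itgam at 1031, with Ly6c2 at 504, Csf1r at 368 and Ccr2 at 35.5. Itgam encodes CD11b, on which both subsets were sorted, so it does not tell monocytes from granulocytes. The monocyte list summed to 2100 with Itgam included, and the neutrophil list to 223611. Markers of other cells were also present. The summed level was 3599 for 8 tissue macrophage genes, led by C1qb at 930, and 1421 for 8 B-cell genes, led by Cd79a at 389. It was 124 for 8 genes of T and NK cells, 65.6 for 8 dendritic-cell genes and 22.7 for 6 platelet genes. Itgax, which monocytes and macrophages also express, made up most of the dendritic-cell sum, and the other 7 genes summed to 13.7. Macrophages are a known source of Ccl6, Ccl9 and Cxcl16. The part of these other cells in the chemokine signal was not tested, and in bulk RNA more cells of a type cannot be told apart from more RNA per cell.

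Ccl6 stood far above the rest. Ccl6, a ligand of Ccr1 found in rodents, had a mean signal of 17303. Between 110223 and 264834 reads lie behind that value, so counting error is negligible for it. The level of Ccl6 was 923, rank 101 of the 23004 genes with a length, which is 85.2% of the summed level of the 10 ligands (1084). The next were Cxcl2 at 56.4, Ccl5 at 42.2 and Ccl9 at 24.8. Ccl3 (12.3), Ccl4 (11.3) and Cxcl10 (9.37) formed a middle set, followed by Cxcl16 at 3.19. The Ccr2 ligands Ccl2 and Ccl7 came last, at 0.986 and 0.347. The level of Ccl6 was 2661 times that of Ccl7 (6156 times with the median transcript length and 5964 times in mean signal). The spread of each level over libraries is unknown, so neighbours in this order, such as Cxcl2 and Ccl5 or Ccl3 and Ccl4, cannot be separated.

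**Figure D1:**
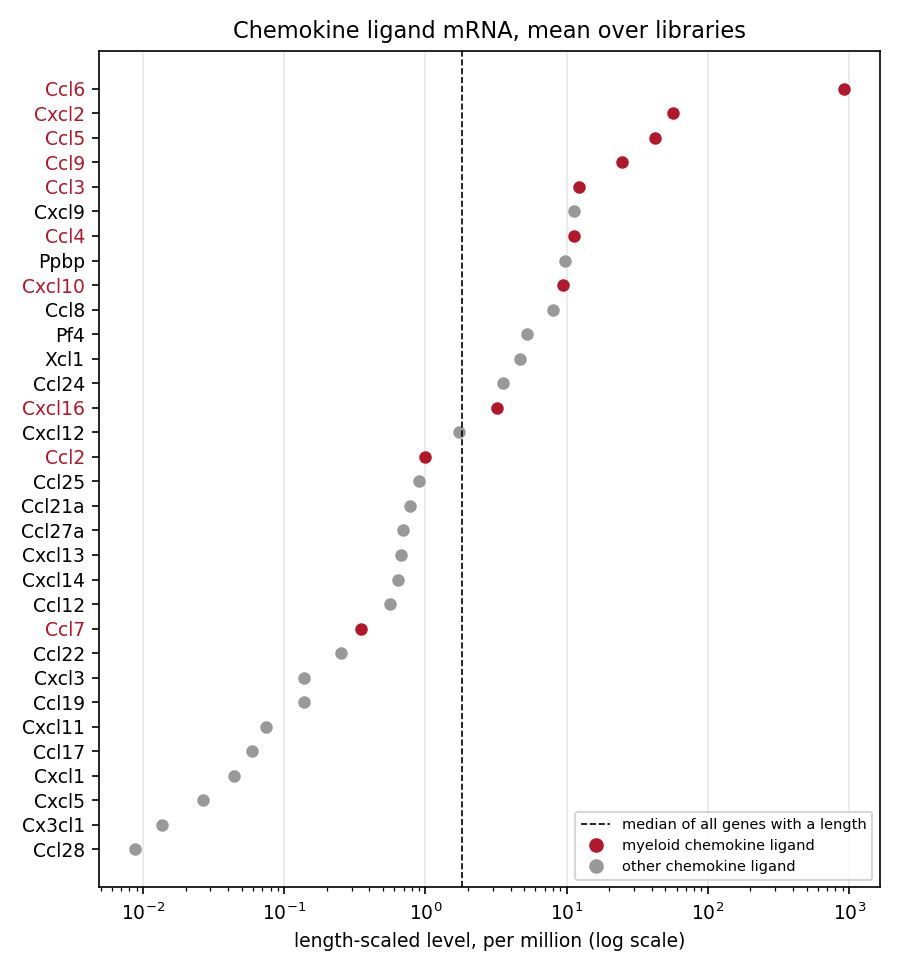
Level of each of 32 chemokine ligand genes, as a share per 1000000 of length-scaled mean signal, on a log axis; red points are the 10 myeloid ligands, grey points the other 22, and the dashed line is the median of all genes with a length (1.81). Ccl6 stands alone at 923, and 2 of the red points, Ccl2 and Ccl7, lie to the left of the median.

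Set against every gene of the table, the 10 ligands were spread over most of the range. The median gene had a level of 1.81, and 8 of the 10 were above it. Of these, 4 (Ccl6, Cxcl2, Ccl5 and Ccl9) were above the upper quartile of 13.7, and Ccl6 and Cxcl2 were above the upper decile of 46.5. In mean signal, not scaled by length, 8 of the 10 were above the median of all genes and 4 above that of protein-coding genes. A mean signal of at least 10 was reached by 9 ligands, against 62.0% of all genes. Ccl7 fell short of it with 2.90.

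The table lists 22 other chemokine ligand genes, of which 10 reached a mean signal of 10. The 10 myeloid ligands held 95.7% of the summed level of all 32. Most of that share is Ccl6 alone, at 923 of a sum of 1134, while the other 22 summed to 49.2. Of the others, those at or above the level of Ccl2 were Cxcl9 (11.3), Ppbp (9.71), Ccl8 (8.05), Pf4 (5.21), Xcl1 (4.66), Ccl24 (3.53) and Cxcl12 (1.72). Cxcl9, an interferon-induced ligand of Cxcr3, and Ccl4 both had a level of 11.3. Ppbp and Pf4 are platelet products and are themselves among the 6 platelet genes summed above, so that sum is not separate from their own levels. The rest of that list ran from 0.862 (Treml1) to 2.65 (Gp9). Xcl1 is made by T and NK cells, whose markers were given above.

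The ligands of Ccr1 come first. Ccr1 is a receptor of monocytes and neutrophils, and its level was 466. Ccl6 and Ccl9 (MIP-1 gamma) are close relatives that bind it. Ccl9 (ENSMUSG00000019122) spans bases 83572919 to 83578636 of chromosome 11 (mm10, minus strand), and Ccl6 (ENSMUSG00000018927) follows 9245 bases further on, on the same strand, from 83587882 to 83593087. The mean signal of Ccl9 was 789, from between 5025 and 12072 reads. Although the genes are neighbours, the level of Ccl6 was 37.2 times that of Ccl9 (21.9 times in mean signal).

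The promoter windows of both genes are shown because they are neighbours with such different levels. Each runs from 250 bases before to 50 after the RefSeq start (build GRCm38.p6, the assembly of mm10), 5′ to 3′, on the minus strand. Ccl6 is at chr11:83593038-83593337 and Ccl9 at chr11:83578587-83578886. Capitals mark the motifs searched, namely TATAAA, the NF-kB-like GGNNNTTCC, the interferon-response-like GAAANNGAA, the AP-1 motif TGANTCA and the PU.1 motif GAGGAAGT, on either strand.
Ccl6: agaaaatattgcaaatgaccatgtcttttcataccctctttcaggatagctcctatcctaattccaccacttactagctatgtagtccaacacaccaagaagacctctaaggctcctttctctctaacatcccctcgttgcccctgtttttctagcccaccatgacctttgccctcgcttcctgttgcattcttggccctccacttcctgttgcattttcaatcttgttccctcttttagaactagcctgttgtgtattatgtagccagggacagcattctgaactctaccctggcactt
Ccl9: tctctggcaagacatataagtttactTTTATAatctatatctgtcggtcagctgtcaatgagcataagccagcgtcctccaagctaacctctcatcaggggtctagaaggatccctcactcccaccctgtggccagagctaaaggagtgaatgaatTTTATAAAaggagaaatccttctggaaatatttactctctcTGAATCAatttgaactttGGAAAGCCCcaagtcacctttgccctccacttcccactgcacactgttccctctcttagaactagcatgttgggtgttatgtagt
None of the 5 motifs was found in the window of Ccl6. That of Ccl9 held TATAAA (3 matches, 2 of them overlapping, the nearest at base -92 from the start), an AP-1 match at -53 and an NF-kB-like match at -35. These are matches of letters, and no binding was measured.

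Ccl3, Ccl4 and Ccl5 draw in T cells and monocytes. Ccl3 and Ccl5 bind Ccr1, and Ccl5 also binds Ccr3, a receptor best known from eosinophils, which had a level of 82.2. Ccl3 (chromosome 11, minus strand, 83647844 to 83649355) and Ccl4 (plus strand, 83662584 to 83664683) stand 13228 bases apart and are transcribed away from each other. Their mean signals were 98.2 and 77.9, and their levels differed by a factor of 1.09. Ccl5, also known as RANTES, lies at 83525778 to 83530518 on the minus strand, with a mean signal of 423, and its level was 3.73 times that of Ccl4 (5.97 times with the median transcript length). T and NK cells are a known source of all 3 ligands, and their markers had levels from 2.51 (Ncr1) to 49.7 (Nkg7). The part of these cells in the signal of Ccl3, Ccl4 and Ccl5 was not tested.

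**Figure D2:**
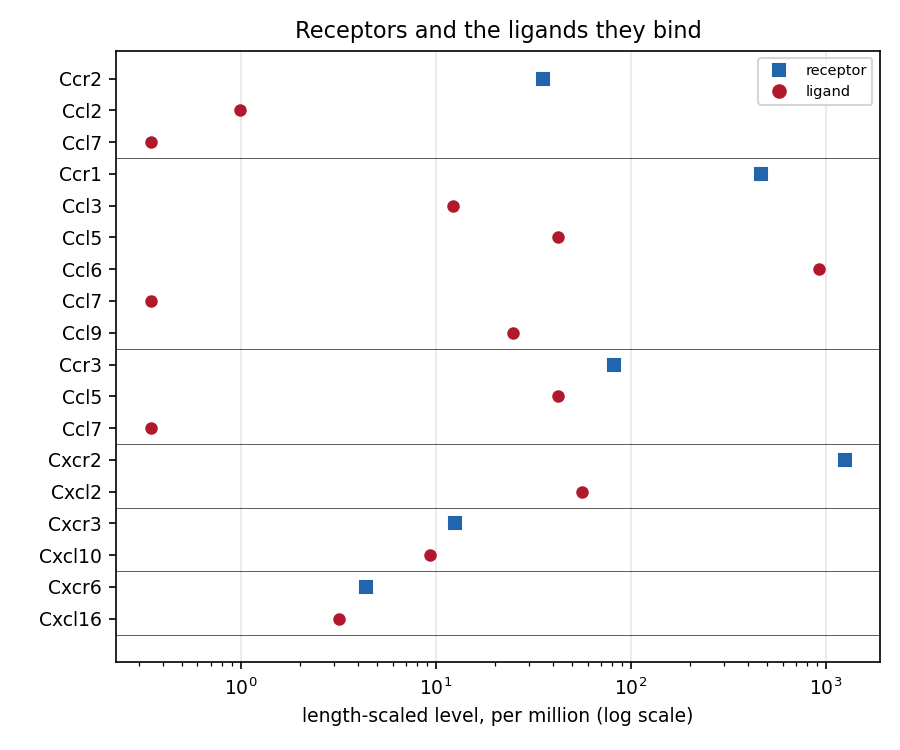
Levels of 6 chemokine receptors (blue squares) and of the myeloid ligands that bind each (red circles, listed under the receptor), per 1000000 on a log axis. The receptor is higher in 11 of the 12 pairs, all but Ccl6 (923) and Ccr1 (466), and in 9 of 12 with the median transcript length, where Cxcl10 and Cxcl16 are also above their receptors. Ccr1 and Ccl7 each stand in several pairs, so the 12 are not separate comparisons, and Ccl4 is in none.

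Ccl2 and Ccl7, known as MCP-1 and MCP-3, act on Ccr2 and bring Ly6C+ monocytes out of the bone marrow. Both were near the floor, while the receptor Ccr2 was at 35.5. Ccl2 (chromosome 11, plus strand, 82035571 to 82037453) had a mean signal of 11.7, from between 75 and 179 reads summed over the libraries. Ccl7 (plus strand, 82045712 to 82047525) begins 8258 bases downstream of it. At a mean signal this low, the sum of steps had a single solution, which gave the reads of Ccl7 in each library. With the libraries ordered from the largest size factor to the smallest, the reads of Ccl7 were 0, 2, 1, 8, 0, 1, 6 and 3. The 21 reads came from 6 of the 8 libraries, and 14 of them from 2 libraries. After division by the size factor, the libraries ran from 0 to 8.07 with a median of 1.55. The library with the largest size factor had none, but the steps carry no sample names, so these libraries cannot be assigned to a genotype or subset. With so few reads, counting error is large in every library.

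**Figure D3:**
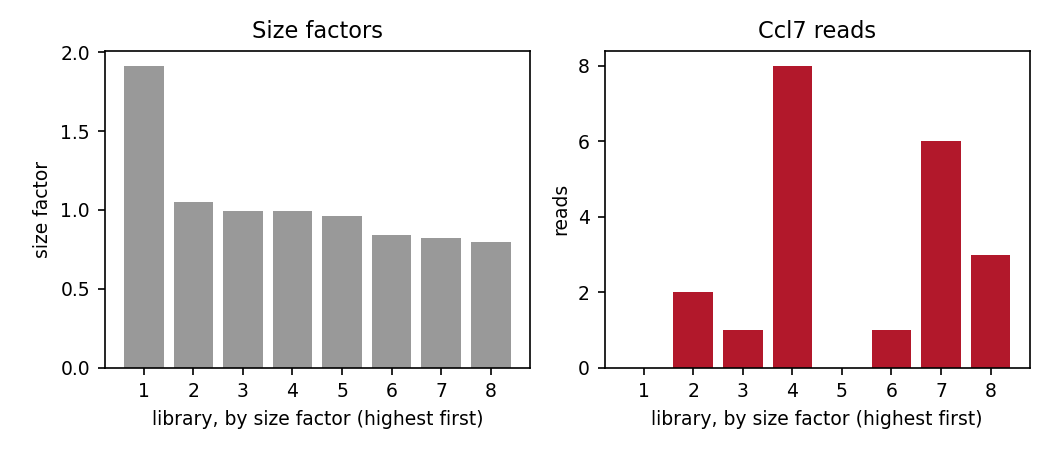
Left, size factor of each of the 8 libraries behind the mean signal; right, reads of Ccl7 in the same libraries, in the same order from the largest size factor to the smallest. Library 1, with a size factor of 1.91, has no Ccl7 read, and libraries 4 and 7 hold 8 and 6.

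Cxcl2 (MIP-2) is a ligand of Cxcr2 that calls in neutrophils and is made by neutrophils and monocytes themselves. Its mean signal was 1218 and its level 56.4. Its receptor Cxcr2, a neutrophil marker, was at a level of 1251. Cxcl2 spans bases 90903871 to 90905938 of chromosome 5 (plus strand), next to Cxcl1, another ligand of Cxcr2, with 10755 bases between them. Cxcl1, named here after its value was seen, had a mean signal of 0.859 from 8 reads in 4 of the 8 libraries. The level of Cxcl2 was 1286 times that of Cxcl1, and Cxcl5 had 4 reads and Cxcl3 a mean signal of 5.04. Cxcl2 was therefore nearly the whole of the Cxcl1, Cxcl2, Cxcl3 and Cxcl5 signal.

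Cxcl10 (IP-10) is induced by interferon and acts on Cxcr3 of T and NK cells. It had a mean signal of 220 and a level of 9.37, against 12.6 for Cxcr3. With the median transcript length this order turned, and Cxcl10 (7.31) was above Cxcr3 (5.33). It spans bases 92346638 to 92348889 of chromosome 5 (minus strand), and its exons overlap those of Art3 on the other strand, which had a mean signal of 5.74. Interferon regulatory factors were well above it, with Irf1 at a level of 169 and Irf7 at 156. Of the NF-kB genes, Rela was at 79.0, Nfkb1 at 39.7 and the inhibitor Nfkbia at 307.

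The windows of Cxcl2 and Cxcl10 are shown because each holds a pair of NF-kB-like matches, and that of Cxcl10 an interferon-response-like match, marked in capitals as above. Cxcl2 is at chr5:90903649-90903948 on the plus strand and Cxcl10 at chr5:92348840-92349139 on the minus strand.
Cxcl2: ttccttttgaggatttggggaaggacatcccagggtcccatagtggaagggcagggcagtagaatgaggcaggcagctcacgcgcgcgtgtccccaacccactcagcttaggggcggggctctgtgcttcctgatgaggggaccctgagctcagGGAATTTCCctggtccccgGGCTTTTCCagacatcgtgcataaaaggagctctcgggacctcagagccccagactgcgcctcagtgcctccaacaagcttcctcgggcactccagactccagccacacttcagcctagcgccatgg
Cxcl10: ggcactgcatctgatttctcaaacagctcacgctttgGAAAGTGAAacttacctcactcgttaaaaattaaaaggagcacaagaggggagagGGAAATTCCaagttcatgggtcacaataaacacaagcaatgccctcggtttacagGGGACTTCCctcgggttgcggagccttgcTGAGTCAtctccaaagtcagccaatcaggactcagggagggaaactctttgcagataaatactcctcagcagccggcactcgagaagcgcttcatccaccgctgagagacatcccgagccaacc
The NF-kB-like matches begin at bases -96 and -77 in Cxcl2 and at -158 and -103 in Cxcl10. The interferon-response-like match of Cxcl10 begins at -213 and its AP-1 match at -74. Ccl3, whose window is not shown, also has an interferon-response-like match, which begins at -39. Windows were found for 5 of the 10 ligands (Ccl3, Ccl6, Ccl9, Cxcl2 and Cxcl10), and not for Ccl2, Ccl4, Ccl5, Ccl7 and Cxcl16. The NF-kB-like motif was in 3 of the 5, against 18.5% of the 32851 RefSeq windows. The interferon-response-like motif was in 2 (8.56% of all windows), the AP-1 motif in 2 (7.81%), TATAAA in 1 (13.6%) and the PU.1 motif in 0 (3.20%).

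Cxcl16 differs from the other members in being made as a membrane protein, which binds Cxcr6 and is released when Adam10 or Adam17 cuts it. Its mean signal was 101 and its level 3.19, against 4.39 for Cxcr6. With the median transcript length this order turned too, with 2.45 for Cxcl16 and 1.89 for Cxcr6, as it did in mean signal, where Cxcr6 had 88.4. Adam10 was at a level of 62.9 and Adam17 at 37.5, above the ligand by a wide margin. Cxcl16 spans bases 70453983 to 70459984 of chromosome 11 (minus strand), away from the CC clusters, and its exons overlap those of Zmynd15 on the other strand, which had a mean signal of 12.95. Whether the counting used strand is not stated, so reads of these overlapping ends may be shared.

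Many chemokine mRNAs are short-lived because their 3′ untranslated region (UTR) holds AU-rich elements, which the decay factor Zfp36 (tristetraprolin) binds. The AU-rich pentamer counted here, ATTTA in DNA letters, is a part of such elements, and binding by Zfp36 was not tested. Zfp36 was itself high, with a level of 614. In the longest coding transcript of each gene, the 10 ligands had a median of 3.94 pentamers per 1000 bases of 3′ UTR, against 1.202 for the 15500 coding genes of the table, of which 11.1% had at least 3.94. The median count was 2.5 pentamers against 1, and the median 3′ UTR of the ligands was shorter, at 689 bases against 1056. Ccl3 was densest with 12.2, and Ccl5, whose 3′ UTR is 199 bases long, had none. Cxcl2 had the most, 11 in 1494 bases, and 7 of the longer TATTTAT motif. That motif was present in 3 of the 10 ligands (Cxcl2, Ccl3 and Ccl4), against 28.3% of the coding genes. The search was chosen after the levels were seen, and the motifs overlap.

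**Figure D4:**
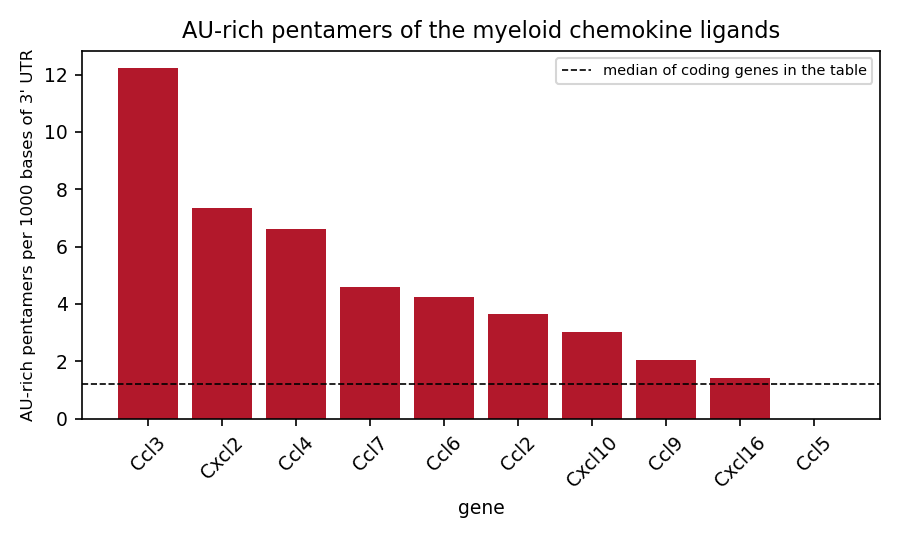
AU-rich pentamers per 1000 bases of 3′ UTR in the longest coding transcript of each of the 10 ligands, in falling order; the dashed line is the median of 15500 coding genes, 1.202. Ccl3 reaches 12.2 and Cxcl2 7.36, 9 of the bars rise above the line and Ccl5 is at 0.

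The densest 30 bases of the 3′ UTR are shown for Cxcl2, where the pentamers run in series, and for Ccl6, the most abundant of the 10, with each ATTTA in capitals. That of Cxcl2 lies in its last exon at chr5:90905327-90905356 on the plus strand of mm10 and holds 5 pentamers. That of Ccl6 lies in its last exon at chr11:83588731-83588760 on the minus strand and holds 2.
Cxcl2: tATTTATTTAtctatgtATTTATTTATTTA
Ccl6: ccttgtttttatagatATTTAaagcATTTA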

How the data were processed

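RNA-seq libraries of sorted CD11b+Ly6C+ and CD11b+Ly6G+ splenocytes were made by the authors, who removed adapters with Cutadapt 1.14, mapped to mm10 by STAR 2.5.2b in its 2-pass mode, quantified genes with RSEM 1.3.0 (GENCODE M12) and ran DESeq2 1.20.0. The only column used is the signal that the authors deposited as a mean of counts divided by size factors, 1 value per gene. The other 6 columns hold the authors' own comparison (log2 fold change, its standard error, test statistic, p-value, adjusted p-value and signed fold change) and were not used. No test was run: the count test planned for values per sample could not be made.

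Lengths are unions of exons of GENCODE M21 (also mm10, newer than M12), found for 23004 of 23084 genes by identifier. For the 28 symbols on several rows, the row with the highest signal was taken. Steps worth 1 read were solved from the lowest values and refined by least squares. On simulated tables with known libraries the number and size of steps came out right in 15 of 15. For a mean signal under 4, reads per library were taken where a single whole-number solution existed within 4e-09. In a test at the real steps, 172 of 200 simulated means had 1 solution and all 172 were right. Depth in reads per sample is unknown from the table, and size factors also move with RNA composition. Promoter windows are from RefSeq (GRCm38.p6). RefSeq protein sequences were not used here, so the planned protein features were not computed. The ligands, lists and motifs were chosen with earlier results of these data known. Named genes are the 10 ligands, other ligands at or above the lowest ligand with a mean signal of at least 10, receptors that bind them, Adam10 and Adam17, regulators and cell markers; Cxcl1, Cxcl3 and Cxcl5 were named after their values were seen. Some genes of these lists are not reported here. Python 3.11.15, numpy 2.4.6 and pandas 2.3.3 were used.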

Additional observations from a re-analysis of the deposited data

How the results depend on the processing

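No paired analysis was possible because values per sample were not at hand, and for the same reason the count test, its normalization and filter alternatives and the fits leaving out each replicate were not run. Scaling by the longest transcript exchanged Cxcl2 and Ccl5 in the order of levels, so that 8 of the 10 ligands kept their place. With the median transcript length 7 kept it, and Cxcl10 moved ahead of Ccl3 and Ccl4. Without length scaling 4 of the 10 kept their place, and this order mixes level with transcript length. Ccl6 was first, Ccl2 ninth and Ccl7 last under these 3 alternatives. The number of ligands above the median gene was 8 among all genes, 4 among genes with a mean signal of at least 10 and 4 among protein-coding genes. A minimum signal of 1 in place of 10 gave 10 detected ligands and a minimum of 100 gave 6. The share of the chemokine ligand signal held by the 10 was 95.7% with length scaling, 95.7% without it and the same when rows of a symbol were summed. None of these alternatives left out Ccl6, which makes up most of that share. All 6 receptors described were above the median level with the exon union, the longest and the median transcript length. The receptor was higher than the ligand in 11 of 12 pairs with the exon union and the longest transcript, in 9 with the median transcript, where Cxcl10 and Cxcl16 passed Cxcr3 and Cxcr6, and in 10 without scaling, where Cxcl16 passed Cxcr6. The median transcript length for receptors, the pairs and the count of ligands above the median level were added after seeing the data. Replicate error is unknown for every value.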

Other observations

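At a mean signal under 4, the reads in each library were also recovered for the scarce ligands outside the 10. Ccl12, a relative of Ccl2 in the same cluster, had 23 reads from 7 of the 8 libraries. Cxcl11, counted as a ligand gene but annotated as a polymorphic pseudogene, had 25 from 7, of which 7 lay in the library with the largest size factor. Ccl19 had 10 reads from 5 libraries. Ccl17, Ccl28, Cx3cl1 and Cxcl5 had 4 reads each, from 2, 2, 4 and 3 libraries. Of the 4 Ccl17 reads, 3 came from the library with the largest size factor, in which Ccl7 and Ccl12 had none. These libraries cannot be assigned to a genotype or subset, and reads this few were not tested.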
